A study of Mus musculus with 72 samples.

Results

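The comparison described here sets white adipose tissue of LRE mice against that of WT mice at zeitgeber time (ZT) 12 h, in 4 libraries of each genotype. These 8 libraries were taken by their titles and plate wells from a series of 72 libraries that covers 6 times of day and 3 genotypes: WT, LRE, and mice labelled as knocked out for Bmal1 in the full body, called KO. The tissue is labelled eWAT, an abbreviation that the labels do not expand. No allele, treatment, strain, age, sex or diet is given for any group in the sources used here, and the meaning of LRE is not stated there either. From the series title, which links the clock of the liver to daily rhythms of fat, the comparison asks how far LRE fat differs from WT fat at 1 time of day. The series text speaks of cultured hepatocytes, and the tissue was taken from the sample labels.

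BMAL1 and its partner CLOCK form the activating arm of the circadian clock: they switch on the Per and Cry genes, whose products in turn repress them, and they also act on many metabolic genes. White adipose tissue stores fat and releases fatty acids and hormones in a daily pattern that follows both its own clock and feeding. By convention ZT12 is lights-off, when mice begin to feed.

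The deposited table holds counts for 32377 features, and its rows carry no gene name or identifier. For 2 features in each direction the row number is given, with the first row under the header as 1, and all others are described as groups. For the same reason Bmal1 itself, markers of fat and other cell types and any gene or promoter sequence were not looked up, so the tissue and genotype labels were not checked against the counts. In tissue RNA, fewer cells of a type and less RNA per cell cannot be told apart.

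The 4 WT libraries held 73037, 74032, 73744 and 70689 counts and the 4 LRE libraries 118480, 58722, 81465 and 42371. Levels are given as CPM, the count scaled to a common library total with TMM factors, and on this scale a single count was worth 11.5 to 19.5 CPM in the WT and 6.64 to 18.7 CPM in the LRE libraries. Mean totals were 72876 ± 1516 in WT and 75260 ± 32973 in LRE (SD, n = 4; two-sided exact permutation p = 0.914). Rows with at least 1 count numbered 9315 ± 580 in WT and 8777 ± 1090 in LRE (SD, n = 4; exact permutation p = 0.429). On the 10 largest rows lay 20.9% ± 11.3 of WT counts and 18.8% ± 2.95 of LRE counts (SD, n = 4; exact permutation p = 1). After Benjamini-Hochberg adjustment over these 3 measures each p was 1. WT replicate 2 stood apart, with 37.8% of its counts on its 10 largest rows, against 14.5% to 15.8% in the other WT libraries. The count of changed features is therefore given with and without that library.

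A total of 1161 rows had at least 10 counts in at least 4 of the 8 libraries and were tested. Of these, 577 reached that minimum in all 4 WT libraries, 543 in all 4 LRE libraries and 386 in all 8. Libraries of a genotype resembled each other more than those of the other genotype. The rank correlation over the tested rows was 0.70 to 0.77 between WT libraries (6 pairs), 0.71 to 0.83 between LRE libraries (6 pairs) and 0.45 to 0.65 between WT and LRE libraries (16 pairs). Without WT replicate 2 each WT pair was at 0.77 and the mixed pairs lay between 0.50 and 0.65, so the ranges stayed separate. The filter admits rows that reach the minimum in 1 genotype only, which can lower the mixed pairs by the choice of rows. How far it did so was not tested. By the column headers, WT libraries lay in well column 1 and LRE libraries in well column 3 under 1 shared plate name, so genotype and well column cannot be told apart at ZT12.

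LRE and WT differed at 302 of the 1161 tested features (26%), with 152 higher (13.1%) and 150 lower in LRE (12.9%; threshold of 0.05 on the Benjamini-Hochberg adjusted p of edgeR's quasi-likelihood F-test). The median log2 fold change was 1.18 over the higher features and -1.16 over the lower ones, against 0.01 over all tested features. A change of at least 2-fold was seen for 95 of the higher and 104 of the lower features, and of at least 4-fold for 15 and 17. The values of the 4 LRE and 4 WT libraries did not overlap for 118 of the 152 higher and 131 of the 150 lower features. Over all tested features this was so for 315 (27.1%). Without WT replicate 2, 252 features differed (21.7%), with 122 higher (10.5%) and 130 lower (11.2%). Both fits called 241 features, 118 higher and 123 lower, and none in opposite directions. Upper-quartile scaling moved the median of all tested features from 0.01 to -0.10 and the split to 120 higher and 187 lower, so the balance of directions holds only relative to the scaling. The count was 128 in a fit of all 18 groups, where libraries of other times share in the estimate of the spread.

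**Figure D1:**
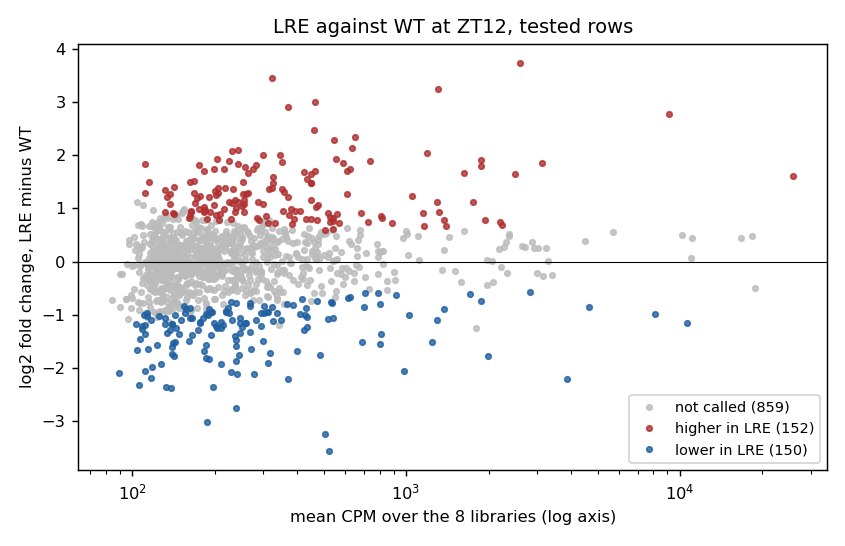
Log2 fold change of LRE minus WT at ZT12 (y axis) against the mean CPM over the 8 libraries (x axis, log scale), 1 point per tested row; red rows were higher and blue rows lower in LRE at adjusted p under 0.05 (edgeR). The 152 higher and 150 lower rows spread on both sides of 0 over the whole range of levels.

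Calls were more frequent among abundant features. In 3 sets of equal size by mean level, 50 of 387 features were called between 84.7 and 157 CPM (12.9%), 105 of 387 between 157 and 266 CPM (27.1%) and 147 of 387 above that (38%). The median standard error of the log2 fold change fell in the same order, from 0.36 through 0.30 to 0.25. In the lowest set 11 features were higher and 39 lower, and in the highest set 86 were higher and 61 lower. A low feature enters the test through the group where it is high: 128 of the 150 lower features had 10 counts in all 4 WT libraries and 44 in all 4 LRE libraries, and 66 and 137 of the 152 higher features did. The balance of directions at each level was therefore not read as a result. No tested feature was without counts in all 4 libraries of a genotype.

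Some of the most abundant tested features differed. The tested row with the highest mean stood at 15194, 12118.5, 13698 and 12493 CPM in WT replicates 1 to 4 and at 33800, 46727, 50837 and 22719.9 CPM in the LRE replicates. All 4 LRE values lay above all 4 WT values, and the log2 fold change was 1.61 ± 0.24 (SE; edgeR adjusted p = 5.59e-05). Over the other times it was 0.06 ± 0.28 (edgeR adjusted p = 0.894). Among the 20 most abundant tested rows, 7 were called, 3 higher and 4 lower. Of the highest set by mean level 38% were called, and of all tested features 26%. The 7th of them fell from 14865 ± 2453 CPM in WT to 6371 ± 558 in LRE (SD, n = 4; log2 difference -1.15 ± 0.19, SE; edgeR adjusted p = 0.000186). The 14th fell from 6448 ± 1942 to 1311 ± 416 CPM (SD, n = 4), a log2 difference of -2.20 ± 0.26 (SE; edgeR adjusted p = 7.37e-06). The shares of whole libraries held by called features differed too. The 152 higher features held 3.99% to 7.47% of counts in the WT libraries and 15.3% to 23.5% in the LRE libraries. The 150 lower features held 7.60% to 14.0% in WT and 4.52% to 6.45% in LRE. Both low ends in WT were those of replicate 2, and the other WT libraries held 7.20% to 7.47% and 11.8% to 14.0%. These features were chosen for that difference, so the shares describe its weight only.

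The feature in row 20713 had the smallest p of all tested features. It stood at 2494, 2556, 2324 and 2422 CPM in WT replicates 1 to 4 and at 13021, 18248, 21003 and 10986 CPM in the LRE replicates. The WT libraries were within a narrow band and the lowest LRE library lay far above it. This is a log2 difference of 2.77 ± 0.23 (SE; edgeR adjusted p = 1.80e-07), and 2.78 ± 0.27 without WT replicate 2 (adjusted p = 2.68e-06). KO libraries lay between the others, at 6599 ± 1511 CPM (SD, n = 4).

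Row 15462 holds the other higher feature named. Its values were 230, 273, 213 and 268 CPM in WT and 1141, 877, 828 and 1233 CPM in LRE, with no overlap. LRE exceeded WT by 2.13 ± 0.23 on the log2 scale (SE; edgeR adjusted p = 2.49e-06, and 1.23e-05 without WT replicate 2). The KO libraries ranged from 458 to 1474 CPM and overlapped with LRE but not with WT.

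Lower in LRE was the feature in row 29118, at 1138, 956, 664 and 1106 CPM in WT and 79.6, 15.9, 81.8 and 131 CPM in LRE. The LRE values rest on 12, 1, 8 and 7 counts. All lay under the lowest WT library, which had 56 counts, and the log2 difference was -3.55 ± 0.32 (SE; edgeR adjusted p = 3.64e-07, and 2.59e-06 without WT replicate 2). KO lay between, at 287 ± 95 CPM (SD, n = 4).

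Also lower was row 21636, at 1310, 703, 1056 and 594 CPM in WT and 73.0, 63.7, 123 and 112 CPM in LRE. The groups did not overlap, and the log2 difference was -3.23 ± 0.31 (SE; edgeR adjusted p = 7.38e-07, and 2.59e-06 without WT replicate 2). In KO it stood at 117, 96.6, 68.8 and 47.3 CPM, with the first 3 libraries inside the range of the LRE libraries and the other below it.

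**Figure D2:**
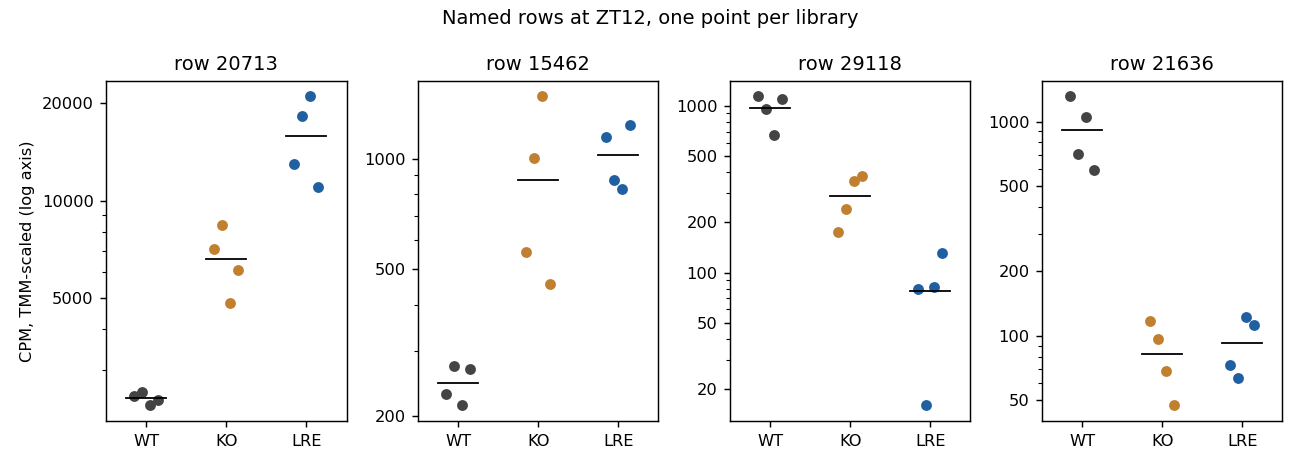
CPM at ZT12 (y axis, log scale, a separate range in each panel) of the 4 named rows in WT, KO and LRE, with 1 point per library and a bar at the mean of 4. LRE and WT do not overlap in any panel, and KO sits between them in rows 20713 and 29118 but with LRE in row 21636.

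The 10 features with the smallest p in each direction were taken next. In all 10 higher and all 10 lower ones the libraries of LRE and WT did not overlap, against 315 of the 1161 tested features (27.1%). These features were chosen by p in the same 8 libraries, so their separation follows from the choice and is given as description. Log2 fold changes ran from 1.65 to 3.73 in the higher and from -3.55 to -1.68 in the lower ones, and the highest adjusted p was 8.29e-06 and 4.31e-05 (edgeR). Without WT replicate 2 it was 9.89e-05 and 0.000147.

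The ZT12 features were then followed at ZT0, ZT4, ZT8 and ZT20, in 32 WT and LRE libraries that took no part in choosing them. ZT16 was left out because its 4 WT libraries were known, from earlier results of these data, to stand apart. Averaged over these 4 times, LRE differed from WT at 270 of the 1161 features (23.3%; edgeR, adjusted p under 0.05), with 125 higher (10.8%) and 145 lower (12.5%). Of the 152 features higher at ZT12, 60 were also called higher (39.5%) and 1 lower. Of the 150 lower features, 56 were also called lower (37.3%) and 3 higher. The remaining features did not pass the test at the other times. Across the 1161 features, the log2 fold change at ZT12 and the mean of the other times correlated at r = 0.46 (Spearman 0.31), as a description over features that are not independent. WT libraries lay in well column 1 at ZT0 to ZT8 and 2 at ZT20, and LRE libraries in 2 at ZT0 and ZT4 and 3 later, so the well column differed between the genotypes at each of these times too.

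By time, the signs at ZT8 were most often those at ZT12. There 141 of the 152 higher features had a positive difference (92.8%, against 47.6% of all tested) and 142 of the 150 lower ones a negative difference (94.7%, against 52.4%). Of these times, only ZT8 had the well columns of ZT12 in both genotypes. Time and well column can therefore not be told apart in this likeness. The medians of the higher and lower features were 0.68 and -0.63 at ZT8. At ZT0 they were 0.38 and -0.19, at ZT4 0.06 and 0.18, and at ZT20 0.21 and 0.12. The median of the lower features was thus above 0 at ZT4 and ZT20. Over all tested features the medians were 0.08 at ZT0, 0.09 at ZT4, -0.03 at ZT8 and 0.01 at ZT20. At single times, 24 of the 150 lower features were called lower at ZT0 (edgeR, adjusted p under 0.05), 20 at ZT4, 19 at ZT8 and 22 at ZT20, where 3.01%, 2.15%, 1.72% and 3.79% of all tested features were. Of the 152 higher features, 8, 1, 7 and 5 were called higher at these times, where 1.21%, 0.258%, 0.689% and 1.55% of all tested features were. Lower calls outnumbered higher ones among all tested features too.

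**Figure D3:**
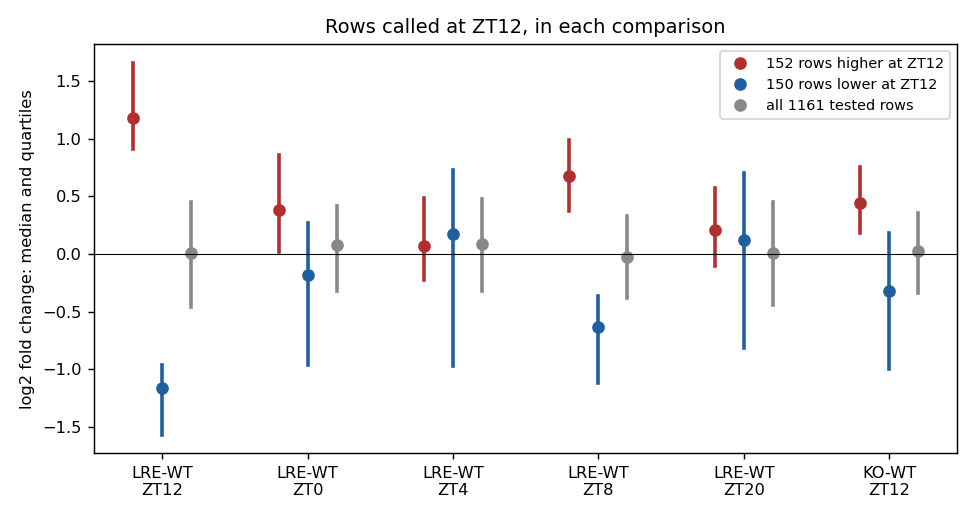
Median (point) and quartiles (line) of the log2 fold change in 6 comparisons (x axis) for the rows higher at ZT12 (red), lower at ZT12 (blue) and all tested rows (grey). The first comparison chose the red and blue rows; at ZT8 they are parted again, with medians of 0.68 and -0.63, while the blue lines span 0 at ZT0, ZT4 and ZT20.

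The 4 named features differed in this respect. Row 21636 was lower in LRE at each time, by log2 fold changes of -2.90 ± 0.49 at ZT0, -3.74 ± 0.53 at ZT4, -3.44 ± 0.55 at ZT8 and -3.32 ± 0.55 at ZT20 (SE; highest adjusted p = 0.000633 by edgeR). Row 15462 was higher at ZT0 (2.66 ± 0.51, adjusted p = 0.00215) and ZT20 (2.69 ± 0.57, 0.00552), and stood at 1.12 ± 0.48 at ZT4 (0.246) and 1.59 ± 0.48 at ZT8 (0.0746). For these 2 features the difference at ZT12 lay 0.09 ± 0.48 and 0.07 ± 0.53 from that at the other times (SE, log2, edgeR adjusted p = 0.940 and 0.961). The 4 named features were chosen in the ZT12 libraries that this comparison reuses. Its p-values for all 4 are therefore given as description.

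The feature in row 20713 did not pass the test at the other times (0.75 ± 0.29 on average, SE; edgeR adjusted p = 0.0550), although it passed in 8 of 36 alternatives, with adjusted p from 0.0263 to 0.114. These were ZT16 included and the fits without WT ZT4 replicate 4, WT ZT8 replicate 1, WT ZT20 replicates 1 or 4, LRE ZT0 replicates 1 or 4, or LRE ZT4 replicate 1. Its WT mean was 2449 ± 100 CPM at ZT12 and 5497 ± 2526 at ZT8, and its LRE mean 15814.5 ± 4617 at ZT12 and 15937 ± 3879 at ZT8 (SD, n = 4). At ZT20 it stood at 5913 ± 4224 CPM in WT and 5976 ± 2136 in LRE (SD, n = 4). The single values there were 10483, 7376, 5376 and 416 CPM in WT and 8775, 5459, 3615 and 6056 CPM in LRE. The WT mean at ZT20 is thus pulled down by replicate 4, which had 24 counts on this row. The gap of ZT12 from the other times was 1.97 ± 0.60 (SE, adjusted p = 0.0771 by edgeR). It passed without WT ZT20 replicate 4 (adjusted p = 0.0158), without LRE ZT0 replicate 3 (0.0356) and without both libraries that hold many counts on few rows (0.0452).

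In row 29118 the level was lower in LRE on average at the other times (-1.48 ± 0.22, SE, adjusted p = 7.61e-06 by edgeR) and lower still at ZT12. The gap of ZT12 from the other times reuses the ZT12 libraries in which the row was chosen. It was -2.13 ± 0.53 (SE, adjusted p = 0.0491 by edgeR). This call sits at the threshold: over 45 alternatives the gap ran from -2.48 to -1.85, with adjusted p from 0.0160 to 0.132, and passed in 19. Its LRE level was 77.0 ± 47.1 CPM at ZT12, 161 ± 95 at ZT8, 188 ± 70 at ZT20, 288 ± 258 at ZT4 and 410 ± 109 at ZT0 (SD, n = 4).

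A test over 40 libraries compared the LRE-WT difference at ZT12 directly with the mean of the 4 other times. It passed at 6 of 1161 features (0.517%, edgeR adjusted p under 0.05), and at 227 by an unadjusted p under 0.05. All 6 were among the 302, which make up 26% of the tested features. The 302 were chosen in the same ZT12 libraries that enter this test, so nothing was read from this overlap. The count of 6 moved by over 1.5 times when 29 of the 40 single libraries were left out. It was the lowest, 0, without WT ZT12 replicate 1, WT ZT12 replicate 4 or LRE ZT12 replicate 2, 1 without WT ZT12 replicate 2, and 95 without WT ZT20 replicate 4. The median standard error of this gap was 0.42 on the log2 scale, against 0.30 for LRE and WT at ZT12 alone. Most features called at ZT12 were therefore not shown to differ from the other times, which does not show that they are alike.

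Libraries of the same group varied along 1 main axis, and this axis moved with the comparison. It was found in the 64 libraries outside the 2 groups compared, where it held 37.4% of the variance within groups, and each library was scored in units of the within-group standard deviation. The scores were -0.67, 0.0045, -0.74 and -0.37 in WT replicates 1 to 4 at ZT12 and -1.36, -0.92, -1.19 and -1.10 in the LRE replicates. All LRE libraries lay below all WT libraries, so the axis and the genotype cannot be told apart in these 8. Of the 152 higher features 137 had a negative weight on the axis (90.1%, against 54.6% of all tested), and of the 150 lower ones 91 had a positive weight (60.7%, against 45.4%). With the score as a covariate, a fit chosen after seeing the data, 89 features were called (49 higher, 40 lower), 79 of them among the 302. All 4 named features were among the calls.

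**Figure D4:**
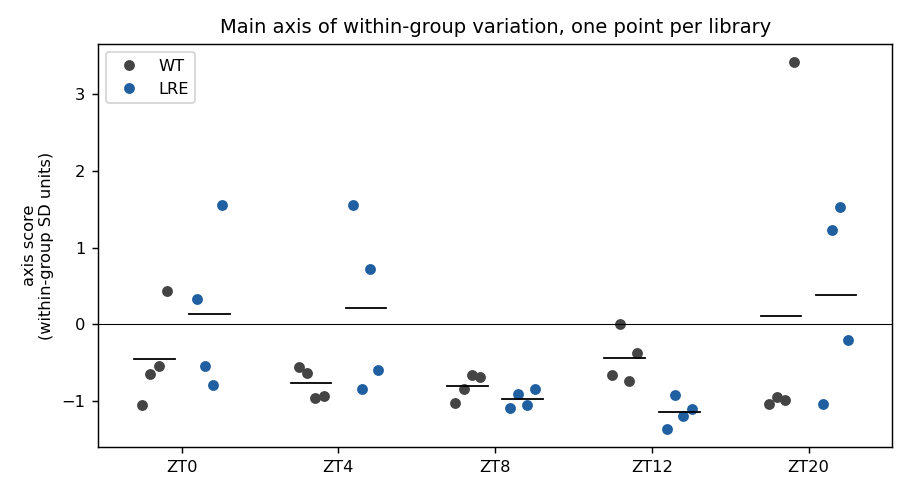
Score of each WT and LRE library on the main axis of within-group variation (y axis, in within-group SD units) at 5 times (x axis), with a bar at the mean of 4 libraries. At ZT12 the 4 LRE points (-1.36 to -0.92) lie under the 4 WT points (-0.74 to 0.0045). At ZT8 the LRE points (-1.09 to -0.85) and the WT points (-1.03 to -0.66) are both low and overlap.

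The lower features fell into 2 sets by their weight on this axis. The 59 with a negative weight had a median log2 fold change of -1.22 at ZT12 and -0.94 over the other times, where 48 of them were called lower and 0 higher. All 634 tested features with a negative weight had a median of -0.10 over the other times, with 129 called lower and 78 higher. The 91 with a positive weight had a median of -1.16 at ZT12 but 0.24 over the other times, where 8 were called lower and 3 higher. All 527 with a positive weight had a median of 0.18 there, with 16 called lower and 47 higher. The medians of the 91 and the 527 were thus close, but their calls leaned in opposite directions. For the 91 the medians were 0.20 at ZT0, 0.61 at ZT4, -0.49 at ZT8 and 0.53 at ZT20. The mean axis scores of LRE were 0.14, 0.22, -0.97 and 0.38 at these times, and those of WT -0.45, -0.77, -0.80 and 0.11. At ZT20 1 WT library stood at 3.42 and the other 3 lay below all but 1 LRE library. The score is computed from the weights of these same features, and the axis was found in libraries that include these times, so the set follows the score by construction. All 527 features with a positive weight had medians of 0.25, 0.40, -0.12 and 0.16 at these times. Of the named features, rows 20713, 15462 and 21636 had negative weights, at ranks 26, 71 and 249 of 1161 counted from the most negative. Row 29118 had a positive weight, at rank 711.

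**Figure D5:**
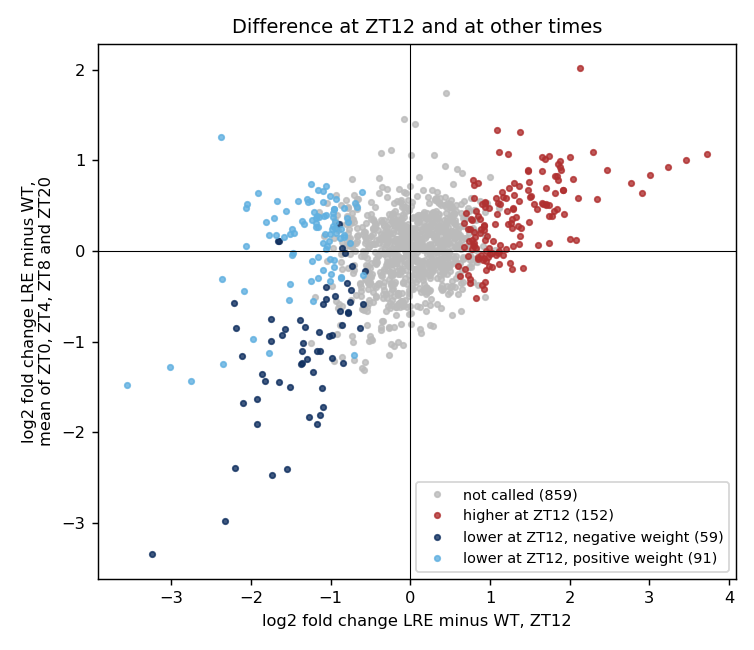
Log2 fold change of LRE minus WT at ZT12 (x axis) against its mean over ZT0, ZT4, ZT8 and ZT20 (y axis), 1 point per tested row, with the lower rows split by the sign of their weight on the main axis. The 59 rows with negative weight (dark blue) lie mostly under 0 on the y axis, with a median of -0.94, and the 91 with positive weight (light blue) mostly above it, with a median of 0.24.

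Fat of the mice labelled KO was measured at ZT12 in 4 libraries, in well column 4. At ZT12 49 features passed the test for KO against WT (4.22%) and 112 for LRE against KO (9.65%; edgeR, adjusted p under 0.05), counts that moved to between 26 and 65 and between 14 and 170 when single libraries were left out. KO and LRE were both set against the same WT libraries, so no overlap between the 2 comparisons was read. For the 152 higher features the median log2 fold change was 1.18 for LRE against WT, 0.44 for KO against WT and 0.69 for LRE against KO. For the 150 lower features the medians were -1.16, -0.33 and -0.96. The median level of the higher features was 176 CPM in WT, 263 in KO and 449 in LRE, and that of the lower ones 339, 288 and 126. LRE thus stood further from WT than KO did in both groups of features, which were chosen for the LRE-WT difference. The KO libraries varied more among themselves: their axis scores ran from -0.81 to 1.31, and their rank correlations from 0.55 to 0.80 (6 pairs). KO replicates 1 to 4 held 35317, 70271, 85798 and 74399 counts. The tested rows were filtered on WT and LRE counts only. These rows held 51.4%, 65.1%, 62.9% and 43.9% of KO counts and 65.9% to 69.8% of LRE counts. In WT replicates 1 to 4 they held 63.1%, 35.8%, 61.1% and 62.0%, so the low WT value is that of replicate 2. Whether depth or the filter widened the KO spread was not tested.

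The named features were also set against KO. They were chosen for LRE against WT, and each test against KO reuses the WT or the LRE libraries of that choice. The values and p-values that follow are therefore given as description. Row 21636 was lower in KO than in WT, at -3.53 ± 0.39 (SE, log2; edgeR adjusted p = 3.24e-05), and LRE differed from KO by 0.23 ± 0.44 (adjusted p = 0.776). Row 15462 was higher in KO than in WT by 1.85 ± 0.35 (adjusted p = 0.00538), and LRE differed from KO by 0.21 ± 0.33 (0.717). LRE was further from WT than KO was for the other 2. LRE exceeded KO by 1.28 ± 0.31 in row 20713 (SE, log2, adjusted p = 0.0180 by edgeR), a call held under 8 of 11 alternatives. It was lost with the replicate number as a block (adjusted p = 0.0643), without LRE replicate 3 (0.0752) and without KO replicate 1 (0.0536). In row 29118 LRE lay under KO, at -1.92 ± 0.40 (SE, log2; edgeR adjusted p = 0.0115), a call held under 11 of 11.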

How the data were processed

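The authors deposited raw counts in 1 table of 180 columns. Sorted and deduplicated alignments were counted, per the file headers. The submitters' processing notes name the aligner STAR 2.5.4b and the builds mm10 and GRCm38. For the counter, annotation, strand and molecular identifiers, nothing is given in the sources used here. All 72 samples were tied to columns by plate well, and 108 columns that match none of them were not used. Summary lines that name no gene cannot be recognised without identifiers, so none was removed.

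Rows with at least 10 counts in at least 4 of the 8 libraries were tested in R 4.3.3 with edgeR 4.0.16 (TMM scaling, group means, quasi-likelihood F-test, Benjamini-Hochberg over the 1161 rows, threshold 0.05). The same rows were used at other times and for KO. Levels are CPM with TMM factors over all 72 libraries, and log2 CPM used a prior count of 2. The standard error is the fold change over the square root of F. The members and lists were chosen with earlier results of these data known. Named rows were called with and without WT replicate 2, had 10 counts in all 4 libraries of the higher group, and had the smallest p (110 higher and 102 lower rows could be named). On simulated counts for LRE against WT at ZT12 over 1161 rows, the test recovered 32 of 50 rows at a log2 change of 1 and 24 of 50 at -1. It recovered 50 of 50 at 2 and 48 of 50 at -2, and called 5 of 961 unchanged rows. Each row was simulated independently, without the main axis of within-group variation of the real libraries. How many unchanged rows are called in the presence of such an axis was not tested. No pair of libraries within a ZT12 group matched within sampling noise (lowest chi-square per degree of freedom 1.48). Whether replicates came from separate animals is not stated, and p-values cover the spread between samples only, which may be technical. Alternatives were other scalings, filters, tools (DESeq2 1.42.0, limma-voom 3.58.1), fits and left-out libraries.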

Additional observations from a re-analysis of the deposited data

Results flagged for a closer look

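The LRE-WT difference at ZT12 differed from that at the other times at 6 features by a direct test (edgeR, adjusted p under 0.05). Among them was row 29118 at -2.13 on the log2 scale, which was chosen in ZT12 libraries that the test reuses. A single library lay far from the other 3 of its group in 2 of 44 sets of row values, where chance gives about 1 in 20. These were row 29118 at 671 CPM in LRE ZT4 replicate 1 and row 21636 at 198 CPM in LRE ZT0 replicate 3. Among 9 sets of library measures, the share of counts on the 10 largest rows stood out in WT ZT12 replicate 2 (37.8%) and KO ZT12 replicate 2 (18.6%).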

How the results depend on the processing

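The LRE-WT comparison at ZT12 gave 302 calls (152 higher, 150 lower). It gave 128 (65 higher, 63 lower) in the fit of 18 groups over 72 libraries, 89 (49 and 40) with the axis score as a covariate (chosen after seeing the data), and 97 lower calls in the fit of 3 groups over 12 libraries; the cause was not tested. Other alternatives kept the count within 1.5 times. DESeq2 called 229 and limma-voom 303. With no filter on low counts 351 of 15141 rows were called, 163 of them among the 302. No alternative reversed a row called in both. Without single libraries the count ran from 239 to 281, with 121 to 143 higher and 112 to 140 lower. All 4 named rows kept direction and call in 23 of 23 alternatives.

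Same-numbered WT and LRE libraries share only a number: their deviations correlated at 0.03, 0.08, -0.08 and -0.06. With the number as a replicate block 290 rows were called at ZT12, 275 of them among the 302. The block gave 26 in place of 112 calls for LRE against KO and kept the other counts within 1.5 times, except that of the test of ZT12 against the other times.

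The test of ZT12 against the other times gave 6 calls, 3 with RLE scaling, 17 with upper-quartile scaling, 3 with the replicate block, 35 with ZT16 included and 32 without both libraries with counts on few rows. Without single libraries it gave 0 to 95. It gave 10 without WT ZT4 replicate 1 or LRE ZT12 replicate 1, 15 without WT ZT8 replicate 4, 18 without WT ZT0 replicate 4 or LRE ZT4 replicate 4, 21 without LRE ZT4 replicate 2, 31 without LRE ZT20 replicate 1 and 41 without LRE ZT0 replicate 3. It fell to 3 or fewer without WT ZT0 replicates 1 or 3, WT ZT4 replicates 2, 3 or 4, WT ZT8 replicates 1 or 2, WT ZT20 replicates 1 or 3, any single WT ZT12 library, LRE ZT0 replicates 1 or 4, LRE ZT8 replicates 2 or 4, LRE ZT12 replicates 2 or 3, or LRE ZT20 replicate 2. Row 15462 then ran from -0.055 to 0.21 and row 21636 from -0.11 to 0.36, changing sign, and with ZT16 included they stood at -0.42 and -0.38.

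Calls at the other times ran from 214 to 390 without single libraries, and those shared with ZT12 from 89 to 123. KO against WT gave 26 to 65, with 26, 29 and 27 without WT replicates 1, 3 and 4 and 30 without KO replicate 1. LRE against KO gave 14 to 170, with 61, 56 and 14 without LRE replicates 1, 2 and 3 and 51, 170 and 66 without KO replicates 1, 2 and 4. Row 15462 ran from -0.010 to 0.57 there. Differences in library totals ran from -12023 to 13347, in rows with a count from -998 to -109 and in the share on the 10 largest rows from -4.25 to 3.52 percentage points. An axis found without 6 further libraries of unusual composition (58 libraries) had weights correlated at 0.97 with the first and 56 in place of 59 lower rows with negative weight. At 42371 to 118480 counts a library, 2-fold changes simulated in independent rows were found in 32 (higher) and 24 (lower) of 50 rows.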

Other observations

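A group of features outside the test marked some WT libraries. Of the 10 largest rows of WT ZT12 replicate 2, 3 were tested and none of these was called, with or without that library (edgeR, adjusted p from 0.0617 to 0.284). The other 7 reached 10 counts in at most 3 libraries and were not tested. The largest of them had 7769 counts in WT replicate 2, 940 in replicate 3, 52 in replicate 4 and 0 in replicate 1. In the 4 LRE libraries it had 1, 1, 1 and 0 counts. The next had 5963, 684, 36 and 2 counts in WT replicates 2, 3, 4 and 1, and 5, 2, 1 and 0 in LRE. All 7 had their highest count in WT replicate 2 and the next in replicate 3, with 3 to 52 counts in replicate 4 and 0 to 5 in each other library.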
